A study of Mus musculus with 15 samples.

Results

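The 9 genes described here were chosen by name as genes of carotenoid and retinoid handling: Scarb1, Cd36, Bco1, Bco2, Lrat, Rbp4, Aldh1a1, Aldh1a7 and Cyp26a1. They stand for 14 of the 45101 probe sets on the array and for 9 of the 18193 genes that it names. Their RNA was measured in the livers of 15 male C57BL/6J mice with 1 Affymetrix GeneChip mouse genome array per mouse. From 8 weeks of age and for 12 weeks, 5 mice received β-cryptoxanthin in the CL diet (CL+CX), 5 received the CL diet alone (CL) and 5 received CRF-1, a standard chow (NC). The CL diet is a high-fat, high-cholesterol diet on which mice develop nonalcoholic steatohepatitis (NASH). It held 1.25% cholesterol, 0.5% sodium cholate, 60% cocoa butter and only 38.23% of the chow, so the CL and NC diets differ in all of these at once. The dose of β-cryptoxanthin is 0.003% of the diet in the treatment text and the methods, whereas the sample titles give 0.005%.

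β-Cryptoxanthin is a carotenoid from which the body can make vitamin A. Scavenger receptors admit carotenoids to cells, BCO1 cleaves provitamin A carotenoids at the centre of the molecule to retinal, and BCO2 cleaves carotenoids off the centre. In the liver, retinol leaves the hepatocyte bound to RBP4 or is esterified by LRAT and stored in stellate cells, and aldehyde dehydrogenases turn retinal into retinoic acid. Retinoic acid acts through the nuclear receptors RAR and RXR, and CYP26A1 breaks it down. Transcription of Cyp26a1 is itself switched on by retinoic acid, so its RNA is in wide use as a readout of retinoic acid signalling.

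Signals below are MAS5 intensities of a probe set, scaled so that the 75th percentile of every array is 54.1. Differences are log2 differences between group means from 1 limma fit of the 3 diets. A probe set passed the test at an adjusted p under 0.05 over the 20342 probe sets tested. All 14 probe sets of the 9 genes lay at or above the array median on all 15 arrays, so all 14 were tested. Where a gene has more than 1 probe set, the one with the highest mean log2 signal leads. The array of CL replicate 2 correlated least with its own group (mean r = 0.941 across probe sets, against 0.957 to 0.962 for the other CL arrays). Results of the 9 genes that change without it are given both ways, and other genes are given only with it. The β-actin control signal, 3′ minus 5′, was 1.07 ± 0.101 in CL+CX mice, 0.82 ± 0.0968 in CL mice and 0.94 ± 0.0859 in NC mice (log2, SD, n = 5 each). Every CL+CX array lay above every CL array (0.949 to 1.174 against 0.699 to 0.945). In CL+CX against CL this value and the diet therefore cannot be fully told apart, also with it as a covariate. The same value for GAPDH was -0.247 ± 0.0861 in CL+CX, -0.447 ± 0.107 in CL and -0.394 ± 0.075 in NC mice, and there CL+CX and CL overlapped. The sources used here do not say how the mice were housed together or in which order the arrays were run, so the p-values measure the spread between these mice. A whole liver holds many cell types, and fewer cells of a type cannot be told apart from less RNA per cell.

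Retinoic acid receptors bind a pair of half-sites in the same direction, and the start of Cyp26a1 is a well known example. RefSeq promoter windows on GRCm38.p6, 250 bases before to 50 bases after a start site, were found for 8 of the 9 genes (11 windows, all genes but Scarb1). They were searched on both strands for 2 copies of a half-site in the same direction, 0 to 8 bases apart. The half-site could be AGGTCA, or else AGTTCA, or also GGGTCA, or lastly GGTTCA. A pair 5 bases apart was found in Cyp26a1, and it begins 32 bases before the start site. Of all 32851 windows, 0.0974% hold such a pair. A pair 1 base apart was found in Bco1, 56 bases before the start site, and 0.222% of all windows hold one. Each of these shares is for 1 spacing alone. Over all the spacings searched, the share ran from 0.0396% to 0.268% per spacing, so a pair at any of them is more common than either share. The other 9 windows held no pair. A single half-site was found in Cd36, in Aldh1a7 and in 1 of the windows each of Aldh1a1 and Rbp4, and 43.7% of all windows hold at least 1. A match is a description of these letters, does not tell which nuclear receptor would bind, and is no measurement of binding. The Cyp26a1 window is printed because this gene differed most from NC mice, the Bco1 stretch for comparison of the spacing, and the windows of Aldh1a1 and Aldh1a7 because these neighbouring paralogs were compared with each other within each mouse. Capitals mark the paired half-sites and the bases between them, from 5′ to 3′ on the strand of the gene.
Cyp26a1, chr19:37697558-37697857, plus strand: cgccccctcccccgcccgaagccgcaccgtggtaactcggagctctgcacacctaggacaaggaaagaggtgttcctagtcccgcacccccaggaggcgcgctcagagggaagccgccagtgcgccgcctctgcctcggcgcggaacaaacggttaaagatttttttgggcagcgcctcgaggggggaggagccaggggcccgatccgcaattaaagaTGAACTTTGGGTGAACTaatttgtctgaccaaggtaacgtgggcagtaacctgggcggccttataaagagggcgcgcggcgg
Bco1, chr8:117095789-117095841, plus strand: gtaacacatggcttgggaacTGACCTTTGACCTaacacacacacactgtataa
Aldh1a1, chr19:20601718-20602017, plus strand: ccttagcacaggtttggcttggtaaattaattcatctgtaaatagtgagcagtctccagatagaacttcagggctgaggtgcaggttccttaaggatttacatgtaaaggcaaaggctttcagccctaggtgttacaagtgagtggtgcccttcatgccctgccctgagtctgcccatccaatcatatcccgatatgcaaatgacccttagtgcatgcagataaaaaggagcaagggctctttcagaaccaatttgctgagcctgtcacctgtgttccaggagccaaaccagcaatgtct
Aldh1a7, chr19:20727507-20727806, minus strand: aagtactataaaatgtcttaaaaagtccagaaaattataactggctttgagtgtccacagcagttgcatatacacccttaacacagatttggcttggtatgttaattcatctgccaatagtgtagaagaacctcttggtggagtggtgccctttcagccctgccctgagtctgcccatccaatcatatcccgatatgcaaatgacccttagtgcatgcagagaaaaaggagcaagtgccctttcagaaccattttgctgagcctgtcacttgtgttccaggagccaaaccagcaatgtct

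The Aldh1a1 and Aldh1a7 windows aligned with 70.2% identical columns (221 of 315), against 38.2% to 50.8% for every other pair of the 11 windows. Of the last 150 bases of both windows, set side by side without gaps, 142 (94.7%) are identical, and the half-site that each window holds lies among them. The Aldh1a1 window shown is the second of 2 RefSeq starts of that gene, and the first aligned with Aldh1a7 at 50.8%.

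In CL mice, 4 of the 9 genes passed the test against NC mice by their leading probe sets. Cd36 and Scarb1 rose, and Cyp26a1 and Aldh1a1 fell. Of all 10508 genes tested in this way, 13.9% passed (7.18% higher and 6.77% lower), and of all probe sets 12.2% passed, against 5 of the 14 here. The groups did not overlap in 3 of the 9 genes (Cd36, Aldh1a1 and Cyp26a1), where 11.7% of all genes did not overlap. The median difference was -0.07 over the 9 genes and -0.08 over all genes.

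When β-cryptoxanthin was added to the CL diet, none of the 9 genes and none of the 14 probe sets passed the test against CL mice with limma. In this comparison 3.26% of all genes (1.48% higher and 1.78% lower) and 3.13% of all probe sets passed. At an unadjusted p under 0.05, 1 of the 14 probe sets passed, the leading one of Cd36, where 19.7% of all probe sets did. The differences of the leading probe sets ran between -0.57 for Cd36 and 0.54 for Cyp26a1. None of the 9 genes passed under any alternative, the methods' test included. Few probe sets passed at all under some of these (1 with the β-actin covariate, 38 with no filter, 81 with the signals as deposited). In those a gene had little room to pass. Against NC mice, CL+CX mice differed in 3 of the 9 genes, with Scarb1 higher and Aldh1a1 and Cyp26a1 lower, where 9.97% of all genes passed (5.12% higher and 4.85% lower). By probe set, 4 of the 14 passed, and 9.79% of all. Here the groups did not overlap in 4 genes (Scarb1, Rbp4, Aldh1a1 and Cyp26a1), against 14.6% of all genes. CL against NC and CL+CX against CL share the CL mice, and CL+CX against NC shares mice with both, so the comparisons are not independent of each other. The plot of differences gives all 3 comparisons for every probe set.

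**Figure D1:**
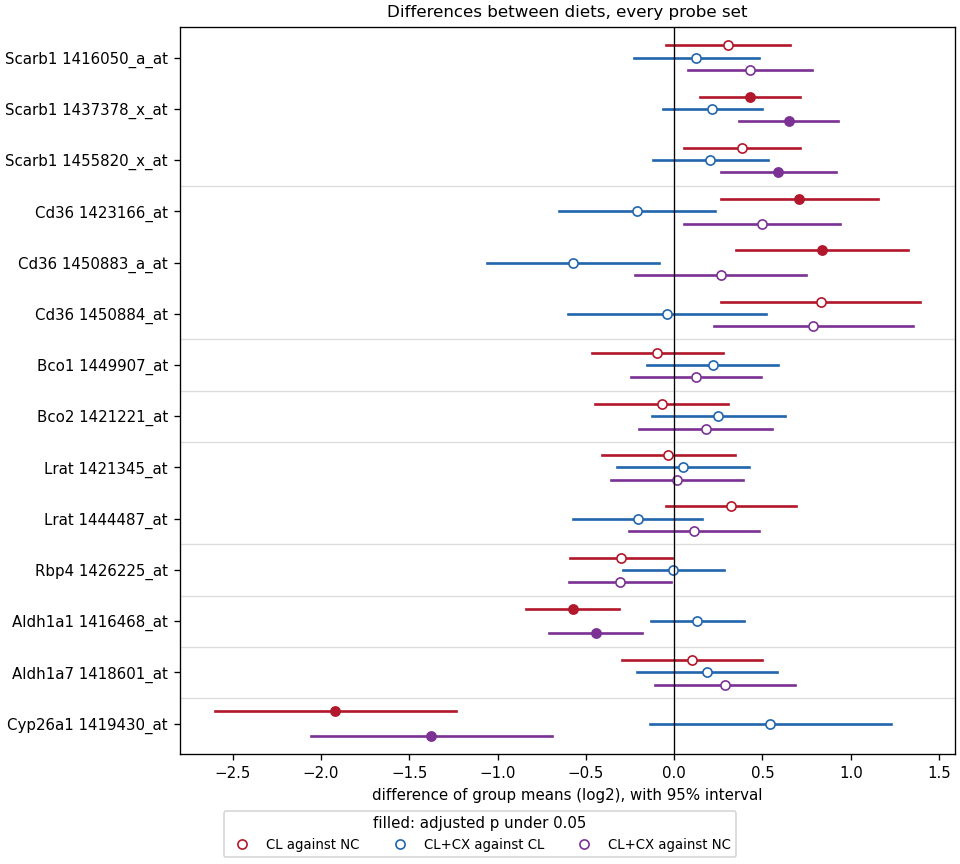
Log2 difference of group means (points) with its 95% interval (lines) for each of the 14 probe sets in the 3 comparisons, with filled points where the adjusted p was under 0.05. The intervals of Cyp26a1 in both comparisons with NC lie farthest from 0, at -1.92 for CL and -1.37 for CL+CX.

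Scarb1 encodes SR-BI, a receptor for high-density lipoprotein that also admits carotenoids to cells. Its leading probe set (1437378_x_at) had signals of 865, 953, 842, 964 and 686 in CL+CX mice, 840.5, 689, 835, 613 and 729.6 in CL mice, and 464, 548, 539.8, 664 and 534 in NC mice. All 5 CL+CX mice lay above every NC mouse, whereas 1 NC mouse lay above the lowest CL mouse. CL+CX mice were 1.57-fold higher than NC mice (log2 difference 0.65, standard error 0.13, limma adjusted p = 0.0078), and this call held in all 26 alternatives. CL mice were 1.35-fold higher than NC mice (0.43, standard error 0.13, adjusted p = 0.045). That call is close to the threshold and was lost in 16 of the 26 alternatives, among them 11 of the 15 fits without 1 mouse, with adjusted p between 0.0228 and 0.152. In the fits without NC replicate 1, 2, 3 or 5, CL replicate 1, 3 or 5, or CL+CX replicate 1, 2, 3 or 4 it was 0.0508 to 0.114. The effect of β-cryptoxanthin, CL+CX minus CL, was 0.22, with a 95% interval of -0.07 to 0.50.

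The other Scarb1 probe sets had the same direction. For 1455820_x_at the difference was 0.59 for CL+CX against NC (adjusted p = 0.0253) and 0.38 for CL against NC (adjusted p = 0.12). For 1416050_a_at it was 0.43 (adjusted p = 0.109) and 0.30 (adjusted p = 0.256), so it passed in neither, and its groups overlapped in both. It was nearly as bright as the leading probe set, with log2 means of 9.63 in CL+CX, 9.51 in CL and 9.20 in NC mice. The leading one had 9.74, 9.52 and 9.09. The Scarb1 call in CL against NC and the lack of overlap in CL+CX against NC thus depend on which probe set leads. In 1416050_a_at, NC replicate 2 had a signal of 873 where the other NC mice had 502 to 567. Probe sets whose names end in x_at can hold probes that also match other transcripts.

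Cd36 encodes a scavenger receptor that takes up long-chain fatty acids and oxidised low-density lipoprotein, and that also admits carotenoids. Its leading probe set (1450883_a_at) had signals of 501, 416, 272, 285 and 339 in CL+CX mice, 808, 407, 420.1, 454 and 636 in CL mice, and 379, 270.5, 355, 296 and 204 in NC mice. Every CL mouse lay above every NC mouse, with replicates 1 and 5 of CL the highest, and the CL+CX mice overlapped with both. CL mice were 1.78-fold higher than NC mice (0.84, standard error 0.23, adjusted p = 0.027). The call was lost in 7 of 26 alternatives, including those without CL replicate 1 (0.68, adjusted p = 0.0657), CL replicate 5 (0.77, adjusted p = 0.0604), NC replicate 2 (0.81, adjusted p = 0.0589) or NC replicate 5 (0.70, adjusted p = 0.0681). It was also lost with the methods' test (adjusted p = 0.129), with no filter (limma adjusted p = 0.0989) and with the β-actin covariate (limma adjusted p = 0.0944). With β-cryptoxanthin in the diet the difference from CL mice was -0.57, with a 95% interval of -1.06 to -0.09 and an adjusted p of 0.176.

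The 3 probe sets of Cd36 had similar values for the CL diet but not for β-cryptoxanthin. CL minus NC was 0.71 for 1423166_at (adjusted p = 0.0375) and 0.83 for 1450884_at (adjusted p = 0.0524). With β-cryptoxanthin the difference was -0.21 for 1423166_at and -0.04 for 1450884_at, with 95% intervals of -0.65 to 0.23 and -0.60 to 0.52. The intervals of all 3 overlap. Against NC mice the CL+CX difference, at 0.26 for the leading probe set, was 0.50 for 1423166_at (adjusted p = 0.139) and 0.79 for 1450884_at (adjusted p = 0.0704). The signals of 1450884_at were low, between 18.2 and 75.1.

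**Figure D2:**
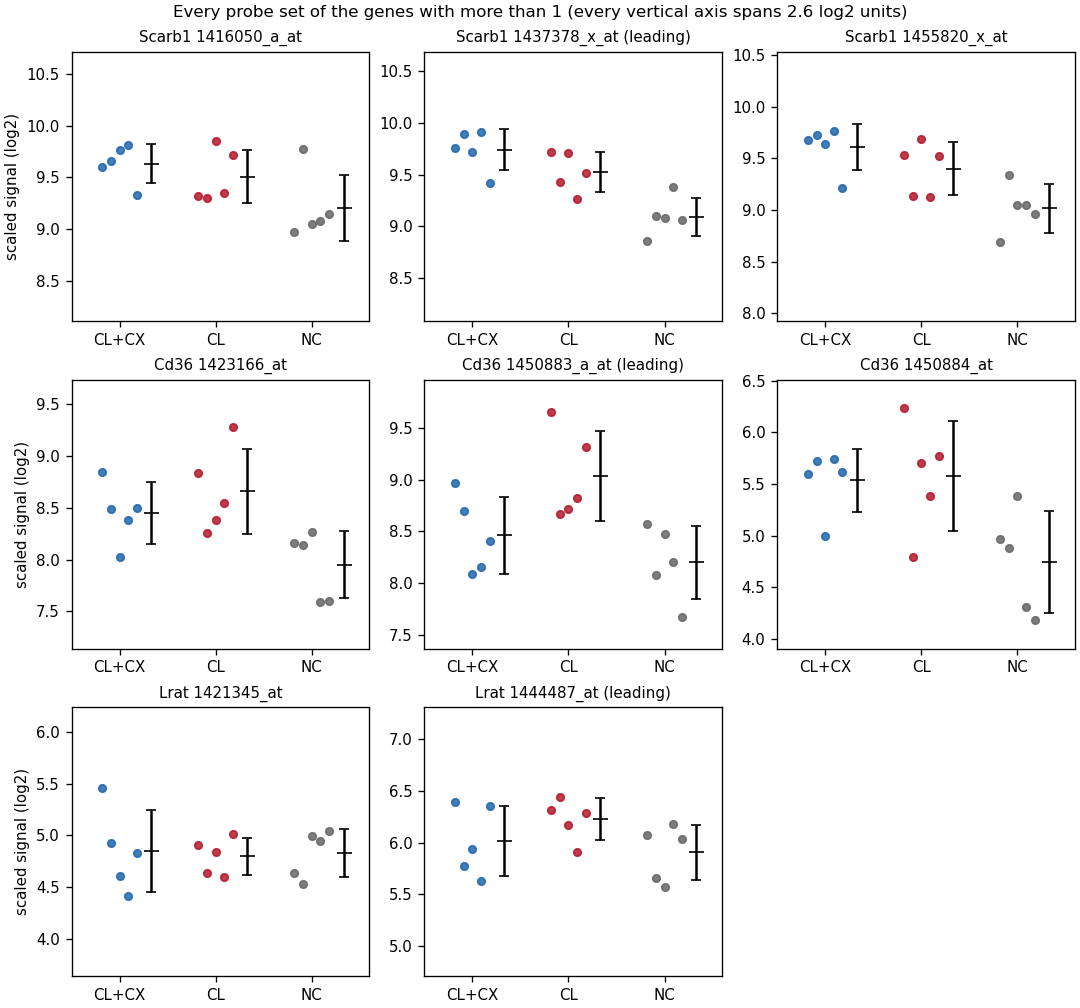
Scaled signal (log2) of every probe set of Scarb1, Cd36 and Lrat, 1 point per mouse in CL+CX, CL and NC, with the group mean and SD beside the points (n = 5). In the leading probe set of Cd36 all 5 CL mice lie above the NC mice, and in the leading probe set of Scarb1 all 5 CL+CX mice do.

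Bco1 and Bco2 encode the carotenoid cleaving enzymes, and neither passed the test in any comparison. Bco1 (1449907_at) had signals of 62.1, 41.2, 47.6, 28.1 and 39.3 in CL+CX mice, 38.2, 40.3, 29.6, 42.5 and 32.8 in CL mice, and 36.2, 39.1, 39.2, 36.4 and 43.7 in NC mice. The 3 groups overlapped, and the CL+CX mice held both the highest and the lowest value. CL minus NC was -0.09 (95% interval -0.46 to 0.27), and CL+CX minus CL was 0.22 (-0.15 to 0.59). Both intervals exclude a difference of 1 on the log2 scale and include 0.

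Bco2 (1421221_at) had signals of 119.5, 139, 179.7, 138 and 136 in CL+CX mice, 122, 139.6, 132, 77.1 and 136 in CL mice, and 110.1, 153, 148, 99.4 and 122 in NC mice. CL replicate 4 lay below all other mice, and the 3 groups overlapped. CL minus NC was -0.07 (95% interval -0.45 to 0.30), and CL+CX minus CL was 0.25 (-0.13 to 0.63). Without CL replicate 4 these were 0.08 and 0.09. Without NC replicate 2 the CL minus NC difference was 0.002, so its sign was not stable.

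Lrat encodes the enzyme that esterifies retinol for storage, which in the liver is a stellate cell enzyme. Its leading probe set (1444487_at) had signals of 83.9, 54.9, 61.3, 49.6 and 81.8 in CL+CX mice, 80.0, 87.0, 72.0, 60.0 and 78.3 in CL mice, and 67.4, 50.6, 47.7, 72.5 and 65.7 in NC mice. The 3 groups overlapped. CL minus NC was 0.32 (95% interval -0.05 to 0.69, adjusted p = 0.251), and CL+CX minus CL was -0.21 (-0.57 to 0.16). For the dimmer probe set 1421345_at these were -0.03 and 0.05. Of 9 tested stellate cell markers, 3 rose in CL mice (Colec11 by 0.77, Hand2 by 0.73 and Ngfr by 1.22), where 7.18% of all genes rose. The summed signal of all 9 was 1818.8 to 2607.5 in CL mice and 1391.3 to 1656.9 in NC mice. The part of these cells in the values of Lrat was not tested.

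Rbp4 encodes the plasma carrier of retinol, a secreted hepatocyte protein. It (1426225_at) had signals of 6338, 7302, 7916, 7452 and 7207 in CL+CX mice, 6078, 9996, 7598, 5946 and 7312 in CL mice, and 9032, 9997, 8769.9, 8229 and 8749.7 in NC mice. Every CL+CX mouse lay below every NC mouse, and 4 of the 5 CL mice did, all but CL replicate 2. Neither difference passed the test, at -0.31 for CL+CX against NC (95% interval -0.59 to -0.02, adjusted p = 0.158) and -0.30 for CL against NC (-0.59 to -0.01, adjusted p = 0.165). Without CL replicate 2, whose array stood apart, CL minus NC was -0.42 and passed (adjusted p = 0.0164), and 5 of the 9 genes then passed in that comparison. Fitted with CL+CX and NC alone, the CL+CX difference passed (adjusted p = 0.0456). With quantile normalization the differences were -0.05 for CL+CX against NC and -0.0018 for CL against NC, and with the signals as deposited they were -0.06 and 0.0142, so the lower Rbp4 level depended on the scaling. Between CL+CX and CL mice the difference was -0.01 (-0.29 to 0.28). Of 9 tested hepatocyte markers, 1 fell in CL mice (Tat), where 6.77% of all genes fell. The median difference of these markers was -0.36, with Alb at -0.38 and Ttr, the partner of RBP4 in plasma, at -0.28. Their summed signal was 49310.0 to 80127 in CL mice and 70468 to 88391 in NC mice, and its part in the values of Rbp4 was not tested.

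Aldh1a1 encodes a retinal dehydrogenase of the hepatocyte cytosol, and it fell on the CL diet with and without β-cryptoxanthin. Its probe set (1416468_at) had signals of 3749.6, 4116, 4513, 3730.0 and 4396 in CL+CX mice, 3913, 4374, 3833, 2785 and 3975 in CL mice, and 5802, 5641, 6086, 5247 and 5091 in NC mice. All 10 mice on the CL diets lay below all 5 NC mice, and CL replicate 4 was the lowest. CL mice had 67.1% of the NC level (-0.57, standard error 0.12, adjusted p = 0.00747) and CL+CX mice 73.5% (-0.44, standard error 0.12, adjusted p = 0.0347). Between CL+CX and CL mice it was 0.13 (95% interval -0.13 to 0.39). The 9 tested hepatocyte markers were lower in CL mice too, by -1.07 to -0.23 against NC mice with a median of -0.36. Of these markers 1 passed, where 13.9% of all genes did. The part of hepatocytes in the values of Aldh1a1 was not tested. With the signals as deposited, where the median of CL minus NC over all probe sets was 0.23 and not -0.09 as after scaling, the Aldh1a1 difference was -0.26 (adjusted p = 0.335), and with quantile normalization it was -0.36 (adjusted p = 0.0361). The CL+CX call was lost in 11 of 25 alternatives, among them the fits without NC replicate 1, 2 or 3 or CL+CX replicate 1, 2, 4 or 5 (-0.47 to -0.41, adjusted p between 0.0509 and 0.0783).

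Aldh1a7, the neighbouring paralog of Aldh1a1 on chromosome 19, did not pass the test in any comparison. Whether its enzyme acts on retinal was not tested here. Its probe set (1418601_at) had signals of 2199, 2485, 1969, 2305 and 1956 in CL+CX mice, 2061, 1675, 1814, 1700.0 and 2398 in CL mice, and 1866, 1895, 2405, 2028 and 1042 in NC mice. The groups overlapped, and NC replicate 5 was the lowest of all 15. CL minus NC was 0.10 (95% interval -0.30 to 0.50) and CL+CX minus NC was 0.29 (-0.11 to 0.68). Without NC replicate 5 the first was -0.09.

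Since a call in 1 gene and none in the other does not show that they differ, the log2 signal of Aldh1a1 minus that of Aldh1a7 was taken in each mouse, a comparison added after seeing the data. It was 0.77, 0.73, 1.20, 0.69 and 1.17 in CL+CX mice, 0.93, 1.39, 1.08, 0.71 and 0.73 in CL mice, and 1.64, 1.57, 1.34, 1.37 and 2.29 in NC mice. Every CL+CX mouse lay below every NC mouse, and CL replicate 2 was the only CL mouse above any NC mouse. The mean differed by -0.73 between CL+CX and NC mice (exact permutation test, two-sided, p = 0.00794, which no arrangement of 5 against 5 can undercut, and 0.0476 after Benjamini-Hochberg adjustment over 6 comparisons, 3 of them of Bco1 minus Bco2). It differed by -0.68 between CL and NC mice (exact p = 0.0238, adjusted p = 0.0714), and CL+CX minus CL was -0.05 (exact p = 0.73). With 1 mouse left out, the difference between CL+CX and NC was -0.81 to -0.57, each time at the smallest exact p that 4 against 5 can give (0.0159), which came to 0.0714 to 0.0952 after adjustment. Without CL replicate 2 the difference between CL and NC was -0.78 (exact test, adjusted p = 0.0476). Both genes are close in sequence, so probes of one may also read the other, and how far they do was not tested.

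Cyp26a1 encodes the main retinoic acid hydroxylase of the liver, and of the 9 genes it had the largest difference from NC mice on both CL diets. Its probe set (1419430_at) had signals of 41.1, 56.8, 31.8, 55.8 and 41.2 in CL+CX mice, 28.2, 17.2, 48.9, 24.1 and 45.5 in CL mice, and 89.9, 109, 231, 69.9 and 126 in NC mice. All 10 mice on the CL diets lay below all 5 NC mice, and NC replicate 3 was the highest by far. The lowest mouse of all was CL replicate 2, and all 5 CL+CX mice lay above 3 of the 5 CL mice.

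CL mice had 26.5% of the NC level of Cyp26a1, a 3.78-fold difference (-1.92, standard error 0.32, adjusted p = 0.00146). In size it exceeded the differences of 99.0% of the probe sets tested, and it passed in all 25 alternatives, with values between -2.10 and -1.48. CL+CX mice had 38.6% of the NC level (-1.37, standard error 0.32, adjusted p = 0.0155), which passed in 24 of 25 alternatives, the exception being the fit with no filter (adjusted p = 0.0676). CL+CX minus CL was 0.54, with a 95% interval of -0.14 to 1.23 and an adjusted p of 0.376. The interval includes both 0 and 1, a level in CL+CX mice that is equal to that of CL mice or double it. Without CL replicate 2 this difference was 0.34, and with the β-actin difference as a covariate it was 0.05 (standard error 0.49, adjusted p = 0.99).

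**Figure D3:**
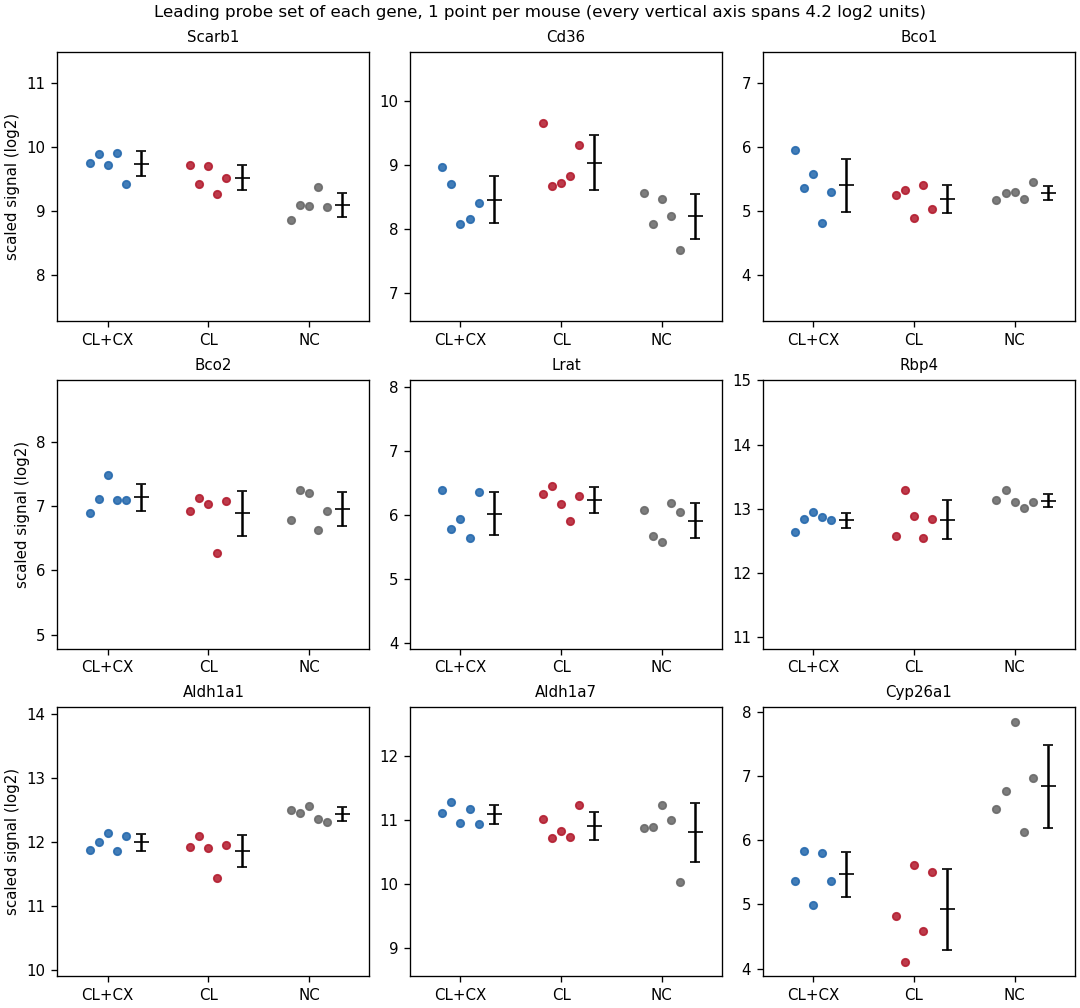
Scaled signal (log2) of the leading probe set of each gene, 1 point per mouse in CL+CX, CL and NC, with the group mean and SD beside the points (n = 5). Cyp26a1 and Aldh1a1 have all 10 mice of both CL diets below the 5 NC mice, and Bco1, Bco2, Lrat and Aldh1a7 overlap in all 3 groups.

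The 9 genes differed in how much mice of 1 group varied. The SD of the leading probe set within a group lay between 0.103 for Rbp4 in NC mice and 0.647 for Cyp26a1 in NC mice (log2, n = 5). The standard error of a difference was accordingly 0.12 for Aldh1a1 and 0.32 for Cyp26a1, so a change of a given size is read more precisely in Aldh1a1. In the limma test of the 3 diets together, 16.6% of all genes passed by their leading probe sets. Of the 9 genes Scarb1 (adjusted p = 0.011), Cd36 (adjusted p = 0.0463), Aldh1a1 (adjusted p = 0.0124) and Cyp26a1 (adjusted p = 0.003) did. Cd36 probe sets 1423166_at (adjusted p = 0.0624) and 1450884_at (adjusted p = 0.0583) did not pass, nor did Scarb1 1416050_a_at (adjusted p = 0.16). Scarb1 1455820_x_at did (adjusted p = 0.0379). The plot of alternatives gives these 4 genes in CL against NC under other settings.

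**Figure D4:**
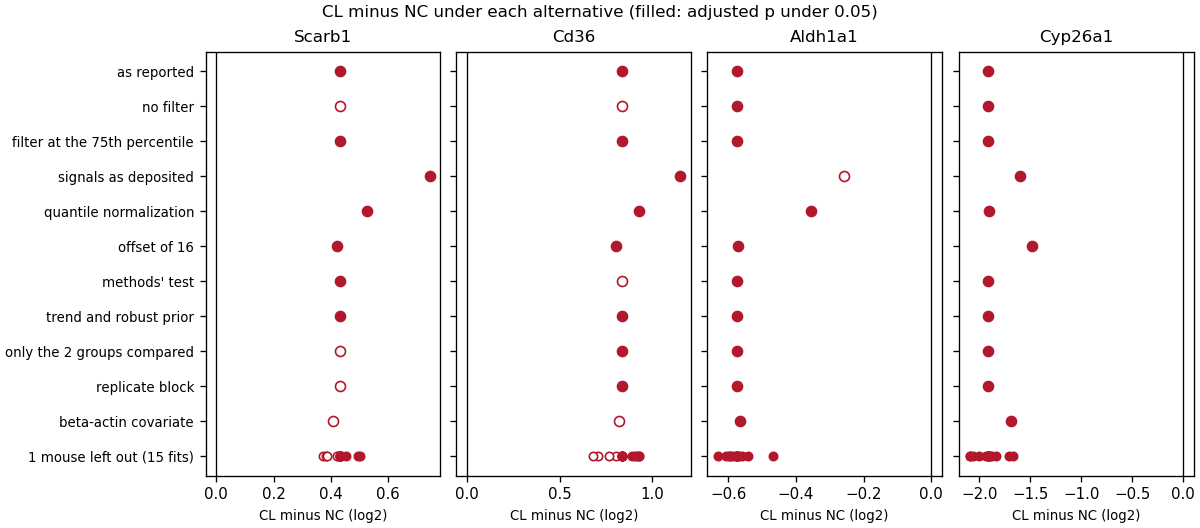
Log2 difference of CL minus NC for the 4 genes that passed, under each alternative setting and, in the lowest row, with each of the 15 mice left out, with filled points where the adjusted p was under 0.05. Cyp26a1 passed under every setting, at -2.10 to -1.48, whereas Scarb1 lost its call in 11 of the 15 fits without 1 mouse.

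Of 63 other genes of carotenoid and retinoid handling, receptors and response, 55 were found under their symbols and 41 were tested by their leading probe sets, and the rest were not analysed here. In CL against NC, 5 of the 41 rose and 6 fell, where 7.18% of all genes rose and 6.77% fell. The median difference of the 41 was -0.27, where that of all genes was -0.08. In CL+CX against CL, 1 rose and 1 fell, where 1.48% and 1.78% of all genes did. Against NC 5 rose and 4 fell in CL+CX mice, where 5.12% and 4.85% of all genes did. The same shares of all genes stand beside the counts of each list below. The alternatives were not read gene by gene for these 41.

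Among genes of uptake, 1 of 5 passed in CL against NC. Lpl, which encodes lipoprotein lipase, rose by 2.20 in CL mice (standard error 0.22, adjusted p = 4.8e-05). Its mean was 9.61 ± 0.497 in CL+CX mice, 10.51 ± 0.336 in CL mice and 8.30 ± 0.248 in NC mice (log2, SD, n = 5 each). With β-cryptoxanthin the difference from CL mice was -0.90 (adjusted p = 0.0408), the only gene of the uptake list to pass there. This call did not hold with the β-actin covariate, where no probe set passed as lower in that comparison.

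None of 5 tested genes of retinol binding, transport and esterification passed in any comparison. Stra6l, which encodes RBPR2, a receptor for retinol-bound RBP4 in the liver, was named after its values were seen. It had 8.74 ± 0.103 in CL+CX mice, 8.68 ± 0.136 in CL mice and 8.68 ± 0.157 in NC mice. The 3 groups overlapped.

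Of 16 tested retinol dehydrogenases and retinal reductases, 2 rose and 3 fell in CL mice, and none passed in CL+CX against CL. Retsat, which saturates retinol, fell by 0.84 (adjusted p = 0.00789), and Rdh16, a microsomal retinol dehydrogenase, fell by 0.83 (adjusted p = 0.00592). Rdh9 rose by 1.04 (adjusted p = 0.00113), measured by an s_at probe set, which can match more than 1 transcript. Akr1b10, a retinal reductase, rose (adjusted p = 0.0316), with log2 signals of 4.23 to 4.62 in CL mice and 0.41 to 4.02 in NC mice. Only 1 of the 5 NC arrays had it at or above the array median, and no size is given for its change. Rdh11, the fifth, was named after its values were seen, and fell by 0.53 (adjusted p = 0.0279).

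Of 4 tested genes of retinal oxidation and retinoic acid breakdown, none passed. Cyp26b1, the paralog of Cyp26a1, was named after its values were seen, and CL minus NC was -0.73 (standard error 0.28, adjusted p = 0.103), with 6.30 ± 0.65 in CL+CX mice, 5.73 ± 0.406 in CL mice and 6.46 ± 0.323 in NC mice. Of 6 tested binding proteins and receptors, Fabp5, a carrier of fatty acids and retinoic acid, rose by 1.87 in CL mice (adjusted p = 0.00213), and Rxra fell by 0.41 (adjusted p = 0.0307). Rxra, the partner of RAR and of many other nuclear receptors, rose by 0.54 in CL+CX mice against CL mice (standard error 0.12, adjusted p = 0.0258). It had 9.33 ± 0.122 in CL+CX mice, 8.79 ± 0.17 in CL mice and 9.20 ± 0.158 in NC mice, and no CL+CX mouse overlapped with a CL mouse, where 5.08% of all genes did not overlap. With the β-actin covariate only 1 probe set passed in CL+CX against CL, as higher, and whether it was that of Rxra was not read.

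**Figure D5:**
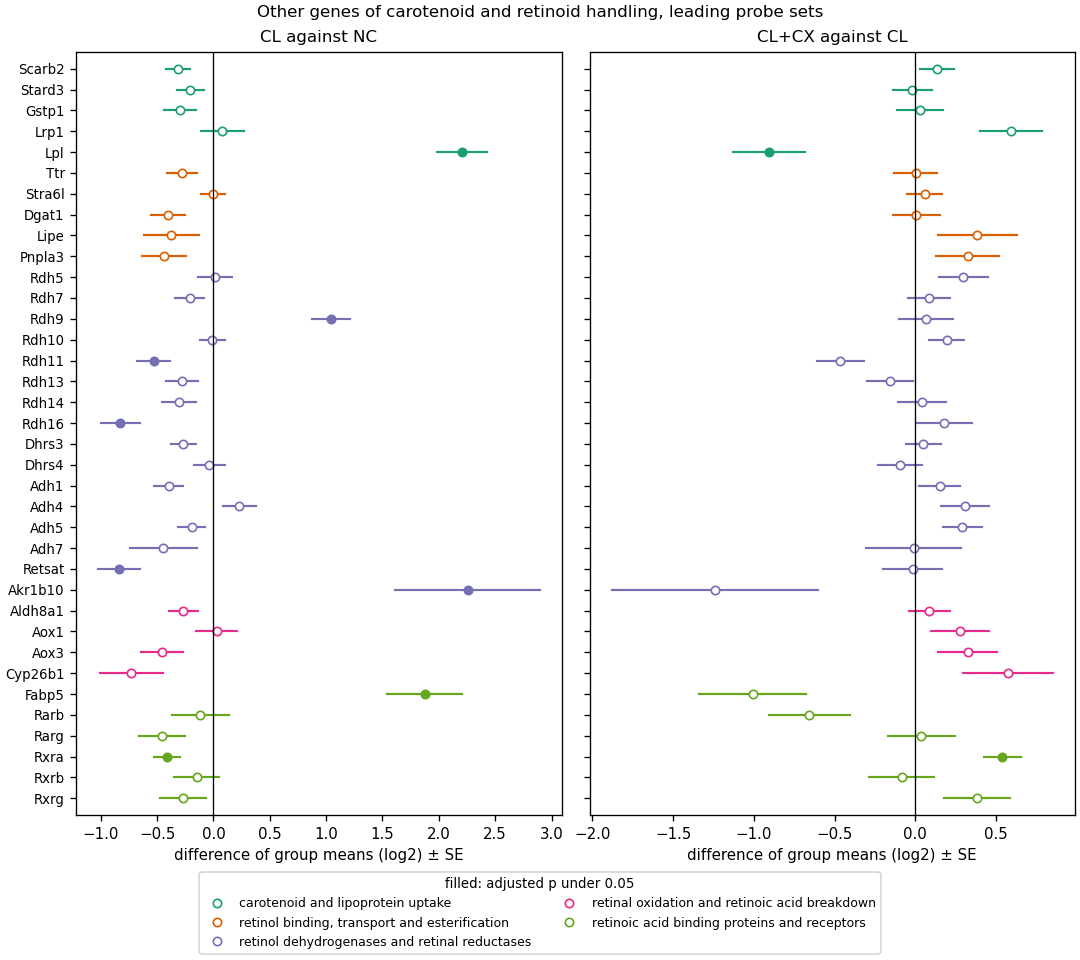
Log2 difference of group means ± SE for the tested genes of 5 lists of carotenoid and retinoid handling, in CL against NC (left) and CL+CX against CL (right), with filled points where the adjusted p was under 0.05. Lpl and Rxra are the 2 genes past the test in CL+CX against CL, at -0.90 and 0.54, and the Lpl call did not hold with the β-actin covariate.

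Of 7 tested genes that other work has found to respond to retinoic acid, 1 rose and 2 fell in CL mice. Tgm2, transglutaminase 2, rose by 0.68 (adjusted p = 0.0171), whereas Pck1, a gluconeogenic enzyme, fell by 0.51 (adjusted p = 0.00749) and Cpt1a, which brings fatty acids into mitochondria, fell by 0.59 (adjusted p = 0.004). None passed in CL+CX against CL. Dhrs3 and Rarb, which like Cyp26a1 respond to retinoic acid, were named after their values were seen and had differences of -0.27 (adjusted p = 0.127) and -0.12 (adjusted p = 0.805) in CL against NC.

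Markers of other liver cells moved with the diets as well. All 11 tested macrophage markers rose in CL mice, and 6 of them were lower in CL+CX mice, set against CL mice. The summed signal of the 12 on the array, with the untested Trem2, was 2138 to 4761.2 in CL+CX mice, 5747.6 to 7816.8 in CL mice and 1074.7 to 2502.8 in NC mice. Macrophages express Cd36, Lpl and Fabp5, and the part of these cells in the values of those genes was not tested. Of 10 endothelial markers, 2 were lower in CL+CX mice, set against CL mice, and none passed in CL against NC. Of 10 pericentral markers Glul rose by 0.36 and Rhbg fell by 0.95 in CL mice, with a summed signal of 14491 to 22554 in CL mice and 18517 to 21965 in NC mice. Of 8 tested periportal markers Cdh1 rose by 0.73 and Pck1 fell by 0.51 in CL mice. Their summed signal was 14539 to 23328 in CL mice and 21328 to 24937 in NC mice. Sox9, listed here as periportal, was lower in CL+CX mice, set against CL mice (limma adjusted p = 0.0141). Its log2 signals were 3.43 to 3.97 in CL+CX mice and 4.25 to 5.19 in CL mice. Only 3 of the 5 CL+CX arrays had it at or above the array median, and no size is given for its change. Of 3 adipocyte markers on the array none was tested, and Adipoq and Lep lay below the array median on all 15 arrays.

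The genes whose values ran most like those of a member across the 15 mice were sought for the 4 genes past the test of the 3 diets, with Pearson's r over 10508 genes as a description. For Cyp26a1 they were Ddx3x (r = 0.91), Pgm1 (r = 0.90) and Atrn (r = 0.90), and for Aldh1a1 they were Slc27a5 (r = 0.96), Cyp2d26 (r = 0.95) and Agt (r = 0.95). For Scarb1 they were Olfm3 (r = 0.92), Hnmt (r = 0.90) and Trim12c (r = 0.88), and for Cd36 they were Prelp (r = 0.94), Cygb (r = 0.93) and Lhfp (r = 0.92). The 15 points of each r share the diet groups and the scaling of the arrays. Cygb is also on the list of stellate cell markers.

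The neighbours of the 2 genes that fell were read as well. Exoc6, next but 1 to Cyp26a1 on chromosome 19, had a difference of -0.13 in CL against NC (adjusted p = 0.691). Anxa1, which lies on the other side of Aldh1a1 from Aldh1a7, rose by 1.87 in CL mice (adjusted p = 0.00587) where Aldh1a1 fell.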

How the data were processed

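Liver RNA of 15 mice was measured by the authors on GeneChip mouse genome arrays, scanned, and summarised per probe set with Microarray Suite 5.0. The deposited table gives each probe set's linear intensity, with no detection calls and with 75th percentiles of 41.5 to 79.0 between arrays. The scaling that the methods name is therefore not in them. A factor per array brought its 75th percentile to 54.1, the geometric mean over arrays. The 11.3% of values below a floor of 1 took that value before log2. The number of arrays limits the precision.

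A probe set was tested if some group had it at or above the array median on each of its 5 arrays (20342, without 64 array controls). Of the probe sets, 34945 carry 1 gene symbol in the platform annotation, 932 carry several and 9160 none, and only those with 1 were named. Group means of the 3 diets were fitted with limma 3.58.1 in R 4.3.3, with Benjamini-Hochberg adjustment over all probe sets tested and a threshold of 0.05. In simulated data for CL against NC on 20342 probe sets, this fit found 76% of 2-fold and 96% of 4-fold changes. The simulation changed only a small part of the probe sets and drew independent noise, so these shares need not hold for the real arrays or for a single gene. Exact permutation tests used scipy 1.17.1 in Python 3.11.15.

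The members, the gene lists and the alternatives were chosen with earlier results of these data known. Named genes are the 9 members, up to 4 genes of each list with the largest difference among those past the test in CL against NC or CL+CX against CL, the 3 genes most like each member past the test of the 3 diets, near neighbours, and the markers. Any other gene is marked. The alternatives changed the filter (none, or the 75th percentile), the scaling (none, or quantile normalization), the floor (an offset of 16), the test (the methods' Welch analysis of variance, or limma with a trend and a robust prior), the samples (each mouse left out, or only the groups compared), the terms (a block for the replicate number, or the β-actin difference) and the probe set (the mean of a gene's). Promoter sequences are those of RefSeq on GRCm38.p6. Metabolic, histological and custom array data were not analysed here.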

Additional observations from a re-analysis of the deposited data

Results flagged for a closer look

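In 4 of the 42 groups of 5 mice looked at, 1 mouse lay far from the others of its group (its gap to the nearest over 0.71 of the group's range), and chance alone gives about 1 in 20. NC replicate 2 had 9.77 on the log2 scale in Scarb1 probe set 1416050_a_at, where the other NC mice had 8.97 to 9.15. CL+CX replicate 5 had 9.22 in Scarb1 probe set 1455820_x_at, where the other CL+CX mice had 9.64 to 9.77. CL+CX replicate 3 had 5.00 in Cd36 probe set 1450884_at, where the others had 5.59 to 5.74, and CL replicate 4 had 6.27 in Bco2 probe set 1421221_at, where the other CL mice had 6.93 to 7.12.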

How the results depend on the processing

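The 9 genes in 3 comparisons give 27 differences with 681 alternative values, of which 631 kept their direction and their side of the threshold. Cyp26a1 in CL against NC, Scarb1 in CL+CX against NC and all 9 genes in CL+CX against CL kept their side under every alternative run. For CL+CX against CL this says little where few probe sets passed at all, as with the β-actin covariate or no filter. Some differences that did not pass with all 15 mice changed sign. With the signals as deposited, CL minus NC was 0.22 for Bco1, 0.24 for Bco2 and 0.0142 for Rbp4, and with the β-actin covariate CL+CX minus CL was 0.17 for Lrat and -0.13 for Aldh1a7. With 1 mouse left out, CL minus NC ran from -0.15 to 0.0845 for Bco2 and from -0.0924 to 0.21 for Aldh1a7, CL+CX minus CL from -0.0774 to 0.11 for Rbp4, and CL+CX minus NC from -0.0163 to 0.27 for Bco1. CL+CX minus CL of the within-mouse Aldh1a1 to Aldh1a7 difference ran from -0.126 to 0.050. The Aldh1a1 call in CL+CX against NC was lost with no filter, with the signals as deposited (-0.20), with quantile normalization (-0.25), with the β-actin covariate, and in 7 of the fits without 1 mouse. The causes were not tested. The within-mouse Aldh1a1 to Aldh1a7 difference in CL+CX against NC was -0.81 to -0.57 without 1 of its 10 mice, at the smallest exact p of 4 against 5, which did not pass after adjustment. Signals near the array medians, such as those of Akr1b10 and Sox9, limit precision.

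Of all probe sets, 2491 passed in CL against NC, 637 in CL+CX against CL and 1991 in CL+CX against NC. With no filter these were 1127, 38 and 605, and with the β-actin covariate 1139, 1 and 663. The methods' test gave 1379 in CL against NC. In CL+CX against CL the signals as deposited gave 81 and an offset of 16 gave 995. With only the groups compared, 142 passed in CL+CX against CL and 3202 in CL+CX against NC. With 1 mouse left out, the counts were 1718 to 3842, 106 to 969 and 1203 to 3055. With the signals as deposited, 2235 of 2323 calls in CL against NC were higher, where 1200 of 2491 were higher after scaling.

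Mice with the same replicate number did not deviate together in every pair (r between -0.13 and 0.14), so the numbers were not taken as pairs. With the replicate number as a block, 366 probe sets passed in CL+CX against CL, and the Scarb1 call in CL against NC was lost (adjusted p = 0.0831). The block changed no other call of the 9 genes.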
